A study of Mus musculus with 16 samples.

Results

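Lifr encodes the ligand-binding receptor chain for leukemia inhibitory factor, and it was examined here together with 8 genes of the receptor and signalling apparatus it works with: the shared receptor chain gp130 (Il6st), the ligand-binding chains Il6ra, Osmr, Il11ra1 and Il27ra, the kinase Jak1, the transcription factor Stat3 and the feedback inhibitor Socs3. These 9 genes, out of 47937 gene identifiers counted, were taken as a list of IL-6 family receptor chains and partners built around Lifr, which was selected on its measured counts because it had none in 1 of the groups, MPP3 WT. The levels of Lifr in MPP3 are therefore given as a description without a test. The question was whether the other receptor chains, the signalling partners and the target genes follow the pattern of Lifr. Of the 9 genes, 8 passed the filter on low counts, and Osmr did not.

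Most cytokines of the IL-6 family bind a ligand-specific receptor chain, which then engages gp130, and LIF does so through a pair of LIFR and gp130. The engaged chains activate JAK kinases, which phosphorylate STAT3, and STAT3 induces its own brake SOCS3 along with genes of survival, proliferation and the acute phase. In bone marrow, cytokines of this family are known to act on stem and progenitor cells and on megakaryocyte and myeloid output.

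The libraries came from MPP3 and MPP4 cells, multipotent progenitors of mouse bone marrow with a myeloid and a lymphoid bias, sorted as LSK CD150- CD48+ (MPP3) and with Flt3+ in addition (MPP4). There were 4 groups of 4 libraries from C57BL/6 mice. Libraries of the same genotype and number share sex and age in the labels and were taken to come from the same mouse, which makes 8 mice. Per the labels, WT mice were Ebf1fl/fl Tie2Cre+/+, aged 12, 11, 12 and 11 weeks in the order of their numbers, and KO mice were Ebf1fl/fl Tie2Cre +/cre, aged 10, 9, 11 and 11 weeks. All mice thus carried floxed Ebf1 alleles by these labels, whereas the series description gives Tie2Cre to both genotypes and the floxed alleles to one, and this discrepancy was not resolved. Mice 1 and 2 were female and mice 3 and 4 male in WT, and the reverse held in KO. Tie2Cre is driven by the promoter of Tek, which is active in endothelium and in blood stem cells, so deletion is not limited to MPP3 or MPP4.

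Totals ranged from 24823708 to 48703193 counts per library. Ebf1, the targeted gene, had counts of 5, 21, 91 and 82 for MPP3 WT and 23, 6, 84 and 6 for MPP3 KO, with 187, 98, 199 and 263 for MPP4 WT and 817, 928, 488 and 642 for MPP4 KO. The MPP4 libraries labelled KO thus had more Ebf1 counts than those labelled WT, against the label, and WT and KO below mean the libraries labelled so. A count over the whole gene may include transcripts from recombined alleles. Flt3 was at 280 ± 25.2 CPM (SD, n = 4) in MPP3 WT and 1224 ± 91.8 in MPP4 WT, and the sort in the labels did not exclude Flt3 from MPP3. CPM is the count scaled to the size of the library after TMM normalization. In bulk libraries, fewer cells with a transcript and less of it per cell cannot be told apart.

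Lifr (chromosome 15, 7090614 to 7197489, plus strand) had 0 counts in all 4 MPP3 WT libraries. It had 38, 7, 19 and 8 counts in the MPP3 KO libraries of mice 1 to 4. In MPP4 it had 138, 141, 122 and 210 counts in WT and 216, 199, 129 and 230 in KO. Every MPP4 library thus lay above every MPP3 library, and every MPP3 KO library above the MPP3 WT libraries. The levels were 0.481 ± 0.366 CPM in MPP3 KO, 3.86 ± 1.17 CPM in MPP4 WT and 5.64 ± 0.734 CPM in MPP4 KO (SD, n = 4). A count of 0 allows up to 3 counts, which is a mean of 0.0888 CPM over the MPP3 WT libraries and covers counting error only. Against that limit, Lifr was at least 43.4-fold higher in MPP4 WT, at least 63.5-fold higher in MPP4 KO and at least 5.42-fold higher in MPP3 KO. The last bound rested in part on mouse 1 and was 3.51-fold without it. In KO, the level in MPP4 was 11.7 times that in MPP3, or 18.1 times without MPP3 KO replicate 1.

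Depth bears on the 0 counts as follows. At the mean MPP3 KO level, the 4 MPP3 WT libraries would hold between 12.3 and 20.1 Lifr counts each, and at the MPP4 WT level between 98.2 and 161. Lifr was listed with earlier results known and passed the filter through the MPP4 groups alone. The comparison of KO with WT within MPP4 set only MPP4 means against each other. Its spread, however, was estimated with the MPP3 libraries, on which Lifr was selected, as well. There Lifr differed by 0.55 ± 0.42 on the log2 scale (edgeR quasi-likelihood test, FDR 0.602), with KO from 4.76 to 6.28 CPM and WT from 2.51 to 4.92 CPM, so that the ranges overlapped. The MPP4 difference thus did not pass the test.

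**Figure D1:**
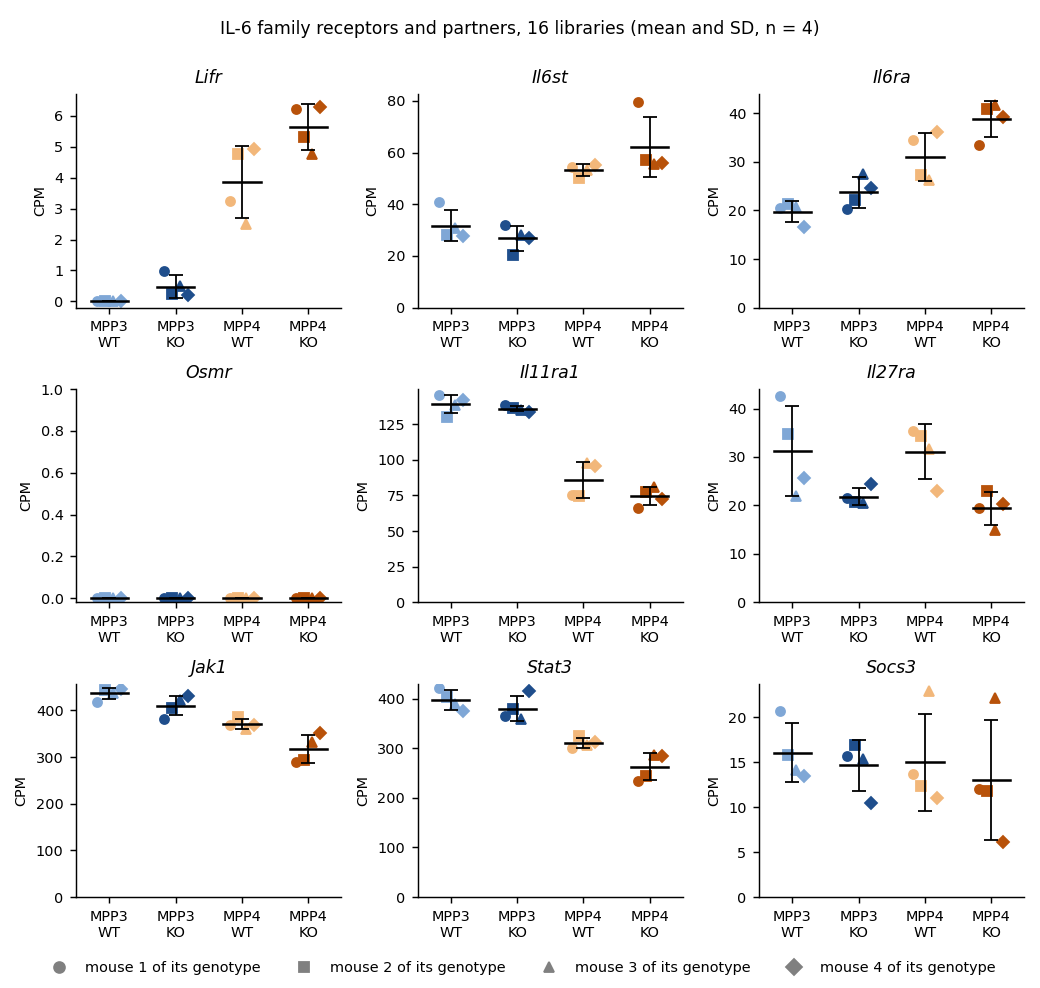
Level in CPM (y axis, linear) of the 9 genes in the 4 groups (x axis), with 1 point per library, its shape giving the number of the mouse, and bars for the mean and SD of 4 libraries. Lifr is at 0 in MPP3 WT and at 3.86 CPM in MPP4 WT, Il6st and Il6ra are also higher in MPP4 but present in MPP3, Il11ra1, Jak1 and Stat3 are higher in MPP3, and Osmr is at 0 throughout.

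The stretches in front of the transcription start are shown for the 3 receptor genes that were higher in MPP4, Lifr, Il6st and Il6ra, and for Socs3, the classical STAT3 feedback gene. RefSeq (GRCm38.p6) gave such a window, 250 bases before to 50 after the start, for 8 of the 9 genes, with none for Il27ra. Lifr and Il11ra1 had 2 starts each, making 10 windows. They were searched for CCCNNGGG, letters recognised by EBF1, and for TTCNNNGAA, letters recognised by STAT proteins. Each pattern reads the same on the other strand. The 250 bases before each start are printed 5′ to 3′ on the strand of the gene, with any match in capitals. They lie at chr15:7129322-7129571 and chr15:7140292-7140541 for Lifr (plus strand), chr13:112463820-112464069 for Il6st (plus), chr3:89913197-89913446 for Il6ra (minus) and chr11:117969367-117969616 for Socs3 (minus).
Lifr start 1: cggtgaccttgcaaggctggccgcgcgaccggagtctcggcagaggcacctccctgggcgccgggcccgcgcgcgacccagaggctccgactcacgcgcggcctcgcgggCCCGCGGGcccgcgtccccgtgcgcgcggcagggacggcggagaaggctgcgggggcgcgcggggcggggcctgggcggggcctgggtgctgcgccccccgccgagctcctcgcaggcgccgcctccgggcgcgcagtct
Lifr start 2: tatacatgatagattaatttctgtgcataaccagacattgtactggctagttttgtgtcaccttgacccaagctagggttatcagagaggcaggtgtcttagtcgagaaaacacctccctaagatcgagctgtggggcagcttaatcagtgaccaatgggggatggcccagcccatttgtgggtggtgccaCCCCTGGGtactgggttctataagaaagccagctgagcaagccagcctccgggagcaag
Il6st: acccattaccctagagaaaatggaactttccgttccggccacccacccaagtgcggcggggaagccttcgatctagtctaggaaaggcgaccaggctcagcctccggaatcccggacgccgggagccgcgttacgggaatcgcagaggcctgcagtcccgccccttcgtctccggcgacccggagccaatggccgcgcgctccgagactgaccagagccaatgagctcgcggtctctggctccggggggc
Il6ra: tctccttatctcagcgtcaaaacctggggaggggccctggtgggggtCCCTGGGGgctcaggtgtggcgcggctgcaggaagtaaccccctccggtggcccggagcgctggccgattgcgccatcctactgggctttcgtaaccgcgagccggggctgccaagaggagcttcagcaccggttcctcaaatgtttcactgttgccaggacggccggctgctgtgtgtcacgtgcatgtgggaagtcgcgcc
Socs3: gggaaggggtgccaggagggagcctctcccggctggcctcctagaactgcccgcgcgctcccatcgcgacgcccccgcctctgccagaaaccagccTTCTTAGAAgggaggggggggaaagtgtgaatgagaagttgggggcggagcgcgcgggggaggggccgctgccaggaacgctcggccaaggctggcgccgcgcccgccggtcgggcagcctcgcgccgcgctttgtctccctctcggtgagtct

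CCCNNGGG was present in 5 of the 10 windows, at both starts of Lifr and in Il6ra, Osmr and Stat3, and in 13.7% of 32851 RefSeq promoter windows of the same length. The 5 windows belong to 4 genes, and the share over all windows was not matched for content of G and C. In Lifr the match began 140 bases before the first start and 59 bases before the second. TTCNNNGAA was present in 1 of the 10 windows, 154 bases before the start of Socs3, and in 8.30% of all windows. A match of letters is a description of sequence and shows no binding.

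Il6st (chromosome 13, 112464070 to 112510086), which encodes the gp130 chain that nearly all ligands of the family use, was present in all 16 libraries. In MPP3 WT it was at 40.7, 28.1, 30.7 and 27.6 CPM in mice 1 to 4, and in MPP4 WT at 54.5, 50.0, 53.2 and 55.3 CPM. In MPP3 KO it was at 31.9, 20.2, 28.3 and 27.0 CPM, and in MPP4 KO at 79.6, 57.0, 55.7 and 56.0 CPM. All 8 MPP4 libraries lay above all 8 MPP3 libraries. Il6st was 1.68-fold lower in MPP3 than in MPP4 of WT mice (log2 difference −0.75 ± 0.15, edgeR FDR 0.00352) and 2.31-fold lower in KO mice (−1.21 ± 0.16, edgeR FDR 4.1e-05).

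Il6ra (chromosome 3, 89864059 to 89913196), the chain that binds IL-6, moved the same way. It was at 20.4, 21.3, 20.7 and 16.7 CPM in MPP3 WT and 34.4, 27.3, 26.2 and 36.1 CPM in MPP4 WT. In KO it was at 20.4, 22.3, 27.6 and 24.7 CPM in MPP3 and 33.4, 40.9, 41.8 and 39.2 CPM in MPP4. The populations did not overlap within either genotype. The level in MPP3 was 1.57-fold lower in WT (−0.65 ± 0.13, edgeR FDR 0.00338) and 1.64-fold lower in KO (−0.71 ± 0.13, edgeR FDR 0.00134). Il6st and Il6ra thus shared the direction of Lifr between populations, while neither was absent from MPP3 and their folds were far below the bound for Lifr.

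Il11ra1 (chromosome 4, 41699989 to 41769474), the chain that binds IL-11, went the opposite way. It was at 145, 130, 138 and 142 CPM in MPP3 WT against 74.9, 74.8, 97.7 and 95.9 CPM in MPP4 WT. In KO it was at 138, 136, 135 and 134 CPM in MPP3 against 66.4, 77.6, 80.9 and 72.7 CPM in MPP4. All MPP3 libraries lay above all MPP4 libraries, by 1.62-fold in WT (0.70 ± 0.09, edgeR FDR 5.89e-05) and 1.82-fold in KO (0.87 ± 0.09, edgeR FDR 5.5e-06). Il11ra2, a near-identical copy, had at most 1 count in any library under the identifier used, and its other identifiers were not examined. Reads that fit both genes may have been left out of either count.

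Il27ra (chromosome 8, 84030294 to 84042589) pairs with gp130 to bind IL-27 and did not differ detectably between populations. It was at 42.6, 34.8, 22.0 and 25.6 CPM in MPP3 WT and 35.4, 34.4, 31.6 and 23.1 CPM in MPP4 WT, with a log2 difference of 0.01 ± 0.19 (edgeR FDR 0.994). In KO the difference was 0.16 ± 0.19 (edgeR FDR 0.686). Osmr (chromosome 15, 6813577 to 6874969), which pairs with gp130 to bind oncostatin M, had 0 counts in all 16 libraries. That allows at most between 0.0617 and 0.118 CPM in a library. Osmr and Lifr are neighbours on chromosome 15, and of the genes near them Rictor was at 18.6 ± 2.99 CPM in MPP3 WT and Egflam at 0 counts throughout, both chosen after their values were seen.

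Jak1 and Stat3 were higher in MPP3. Jak1 (chromosome 4, 101152367 to 101265282), the kinase bound to gp130, was at 436 ± 12.7 CPM in MPP3 WT and 371 ± 11.0 in MPP4 WT, and at 410 ± 21.2 and 318 ± 30.0 in KO (SD, n = 4). Its log2 difference was 0.23 ± 0.06 in WT (edgeR FDR 0.0241) and 0.37 ± 0.06 in KO (edgeR FDR 0.000675). Stat3 (chromosome 11, 100885098 to 100939540), the transcription factor activated by gp130, was at 397 ± 19.5 and 311 ± 10.5 CPM in WT and at 380 ± 24.7 and 263 ± 27.0 CPM in KO. Its difference was 0.35 ± 0.07 in WT (edgeR FDR 0.00279) and 0.53 ± 0.07 in KO (edgeR FDR 6.08e-05). For both genes, MPP3 and MPP4 did not overlap within a genotype.

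Socs3 (chromosome 11, 117966079 to 117970047), the feedback inhibitor that binds gp130 and JAK kinases, overlapped between all 4 groups. It was at 20.7, 15.9, 14.1 and 13.5 CPM in MPP3 WT and at 13.7, 12.3, 22.9 and 11.0 CPM in MPP4 WT. In KO it was at 15.7, 17.0, 15.4 and 10.5 CPM in MPP3 and at 12.0, 11.8, 22.1 and 6.09 CPM in MPP4. Replicate 3 was the highest of its MPP4 group in both genotypes. No comparison passed for Socs3, with edgeR FDR between 0.809 and 1.

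Of the 7 genes other than Lifr that were tested, 5 were called between the populations of WT mice, 3 higher and 2 lower in MPP3, where 15.1% of 11831 genes were called (6.8% higher and 8.33% lower). The same counts were found in KO mice, where 17.9% of genes were called (8.71% higher and 9.18% lower). Called means an edgeR FDR under 0.1. The 5 called genes also had populations that did not overlap, which 15.9% of genes had in WT and 17.2% in KO. These 5 calls, of Il6st, Il6ra, Il11ra1, Jak1 and Stat3, stayed under each of the 9 alternatives and each of the 16 fits that left out 1 library. Between populations, the summed level of 10 lymphoid progenitor markers moved with Lifr, Il6st and Il6ra. It lay between 757 and 891 CPM in MPP3 WT and between 845 and 997 in MPP3 KO. In MPP4 it was 1877 to 2032 CPM in WT and 2198 to 2703 in KO. Dntt made up most of the sum in MPP4 WT (1253 CPM against 45.5 in MPP3 WT), and not every marker of the list moved with the sum. The summed level of 10 stem cell markers moved with Il11ra1, Jak1 and Stat3, at 1058 to 1211 CPM for MPP3 WT, 887 to 994 for MPP3 KO, 570 to 685 for MPP4 WT and 427 to 572 for MPP4 KO. The 10 megakaryocyte markers, a list that overlaps the stem cell list, summed to 414 to 490 CPM for MPP3 WT, 365 to 400.3 for MPP3 KO, 145 to 164 for MPP4 WT and 77.7 to 136 for MPP4 KO. Mature neutrophil markers (10 genes) summed to 23.2 to 53.5 CPM for MPP3 WT, 22.0 to 96.2 for MPP3 KO, 4.78 to 11.1 for MPP4 WT and 7.81 to 20.6 for MPP4 KO. Endothelial markers (10 genes) summed to 426 to 519 CPM for MPP3 WT, 416 to 490 for MPP3 KO, 552 to 656 for MPP4 WT and 546 to 707 for MPP4 KO, with Cldn5 at 0 counts in MPP3. Egfl7 carried that difference (156 CPM in MPP3 WT and 359.6 in MPP4 WT), while Tie1 (70.6 and 24.2) and Esam (50.3 and 8.80) went the other way. Plasma cell markers (10 genes) summed to 464 to 1556 CPM for MPP3 WT, 309 to 650.4 for MPP3 KO, 1357 to 1460.1 for MPP4 WT and 1291 to 1670.5 for MPP4 KO, and within the list Igkc (222 CPM in MPP3 WT, 15.2 in MPP3 KO and 5.66 in MPP4 WT) and Jchain (69.8, 5.23 and 2.06) did not follow the sum. The part of these lists in the results was not tested.

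**Figure D2:**
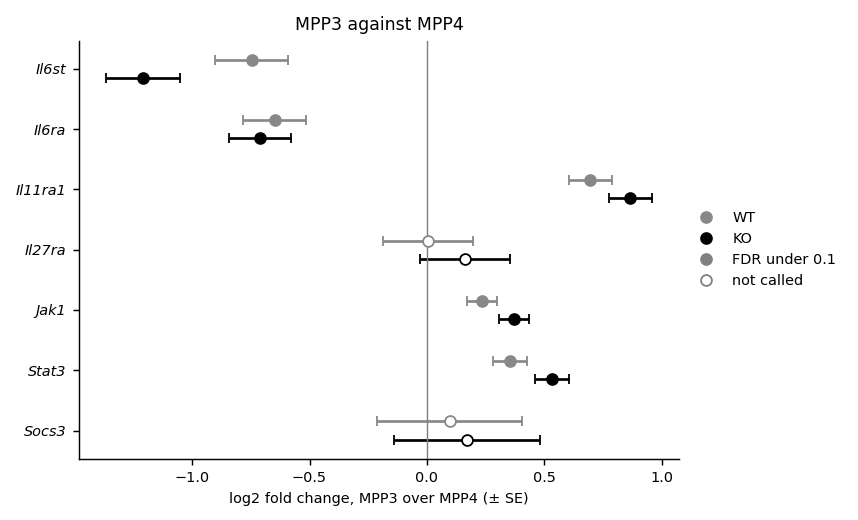
Log2 fold change of MPP3 over MPP4 (x axis, bars ± SE) for 7 genes (y axis) in WT (grey) and KO (black) mice, filled where the edgeR FDR is under 0.1. Il6st and Il6ra lie left of 0 and Il11ra1, Jak1 and Stat3 right of 0 in both genotypes, with Il27ra and Socs3 not called.

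Levels between genes were compared per kilobase of exon. In MPP4 WT, the order was Jak1 at 51.3 ± 1.52 CPM per kb, Stat3 at 32.6 ± 1.11, Il11ra1 at 19.2 ± 2.84, Il27ra at 8.91 ± 1.60, Socs3 at 5.18 ± 1.86, Il6st at 4.80 ± 0.212, Il6ra at 3.59 ± 0.577 and Lifr at 0.358 ± 0.109 (SD, n = 4). The ranges of Il27ra and Socs3 overlapped, as did those of Socs3 and Il6st and of Socs3 and Il6ra. In MPP3 WT the order was the same, with Il6st at 2.86 ± 0.552, Il6ra at 2.29 ± 0.243 and Lifr at 0. The ligand-binding chain of IL-11 was thus the most abundant of the receptor transcripts in both populations, and Lifr was below every other detected chain of the list.

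Whether the KO label changed the partners of Lifr was asked in each population. In MPP3, 0 of the 7 genes other than Lifr were called, where 0.0676% of genes were called, and the DESeq2 Wald test, which called 1.82% of genes, also called 0. Over all genes, the 8 calls of edgeR became 137, 40 and 1 when MPP3 WT replicate 3, 4 or 2 was left out, 72 when MPP3 KO replicate 1 was left out, and lay between 5 and 10 without any other library. The 7 genes were not called in any of these fits. None of the 7 had groups that did not overlap, which 4.58% of genes had, and 1 had an unadjusted p-value under 0.05, which 10.5% of genes had. This was Il27ra, at 31.3 ± 9.30 CPM in WT and 21.8 ± 1.80 in KO (−0.52 ± 0.19, edgeR FDR 0.339). Il6st was at 31.8 ± 6.12 CPM in WT and 26.8 ± 4.88 in KO (−0.24 ± 0.15, edgeR FDR 0.643), and Il6ra at 19.8 ± 2.10 and 23.7 ± 3.13 (0.26 ± 0.13, edgeR FDR 0.53). The other log2 differences in MPP3 were −0.04 ± 0.09 for Il11ra1, −0.09 ± 0.06 for Jak1, −0.06 ± 0.07 for Stat3 and −0.13 ± 0.31 for Socs3.

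In MPP4, 0 of the 8 genes were called by edgeR, where 0.0169% of genes were called. The 2 calls over all genes became 41 without MPP4 KO replicate 4, 36 without MPP4 KO replicate 3 and 24 without MPP3 WT replicate 1, and lay between 1 and 7 without any other library. Without Lifr, 5 of 7 had an unadjusted p-value under 0.05, which 12.8% of genes had, and 4 of 7 had groups that did not overlap, which 7.27% of genes had. These were Il6st, higher in KO, and Il27ra, Jak1 and Stat3, lower in KO. Il27ra was at 35.4, 34.4, 31.6 and 23.1 CPM in WT and 19.6, 23.0, 14.8 and 20.4 CPM in KO (−0.68 ± 0.19, edgeR FDR 0.187). Jak1 was at 369, 386, 360 and 369 CPM in WT and 290, 295, 333 and 352 CPM in KO (−0.22 ± 0.06, edgeR FDR 0.187). Stat3 was at 300.1, 325, 305 and 312 CPM in WT and 234, 245, 286 and 285 CPM in KO (−0.24 ± 0.07, edgeR FDR 0.193). Each gap between the groups was narrow, and for Il27ra the lowest WT library, 23.1 CPM, lay next to the highest KO library, 23.0 CPM.

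Those 3 genes depended on the test. DESeq2 called 3 of the 8, Il27ra (FDR 0.0509), Jak1 (0.0994) and Stat3 (0.0997), where it called 2.58% of genes. With sex as a term in edgeR, Jak1 and Stat3 were called (FDR 0.0822 for both), where 1.55% of genes were called. The FDR ranged from 0.0509 to 0.494 for Il27ra, from 0.0822 to 0.530 for Jak1 and from 0.0822 to 0.564 for Stat3 over the 9 alternatives that left out no single library, with the same direction in all 9. None of the 3 was called in the 16 fits that left out 1 library.

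Among the receptor chains in MPP4, Il6st differed by 0.22 ± 0.15 (edgeR FDR 0.567). Mouse KO1 stood apart at 79.6 CPM, and without it the difference was 0.08 (FDR 0.876). Il6ra was at 31.0 ± 4.98 CPM in WT and 38.8 ± 3.78 in KO (0.33 ± 0.13, edgeR FDR 0.307) and Il11ra1 at 85.8 ± 12.7 and 74.4 ± 6.31 (−0.21 ± 0.09, edgeR FDR 0.353). Socs3 differed by −0.21 ± 0.31 (edgeR FDR 0.811). The ranges overlapped for Il6ra, Il11ra1 and Socs3. The 10 macrophage markers summed to 50.5 to 66.0 CPM for MPP3 WT, 70.1 to 108 for MPP3 KO, 62.0 to 81.9 for MPP4 WT and 80.4 to 98.1 for MPP4 KO, with Marco at 0 counts outside MPP4 KO. The summed lymphoid progenitor markers were also higher in MPP4 KO than in MPP4 WT, with Dntt at a mean of 1635 against 1253 CPM, while Ccr9 (9.73 against 13.9) and Rag1 (3.16 against 3.75) had lower means in KO. The part of these lists in the differences was not tested.

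**Figure D3:**
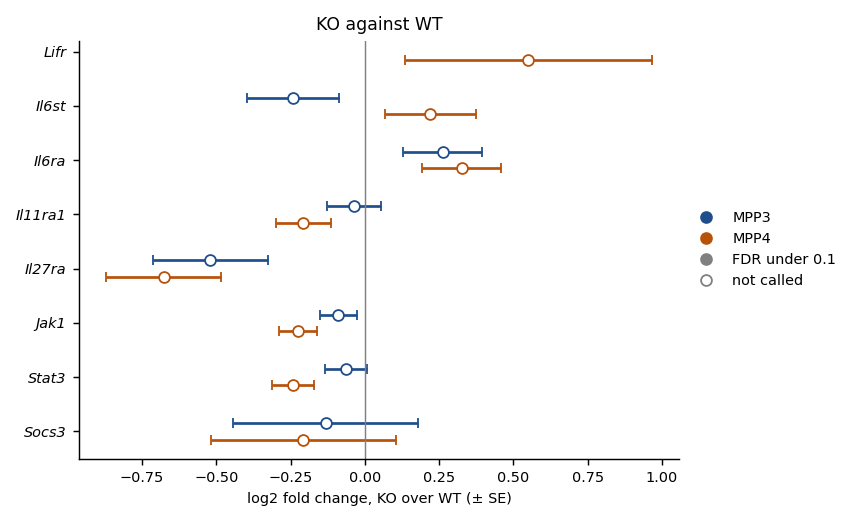
Log2 fold change of KO over WT (x axis, bars ± SE) for 8 genes (y axis) in MPP3 (blue) and MPP4 (orange), all open because none shown had an edgeR FDR under 0.1. Lifr is drawn for MPP4 only, since it had 0 counts in MPP3 WT, and Il27ra, Jak1 and Stat3 lie left of 0 in both populations.

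The interaction, which tests whether the KO effect differs between populations, was called for 0 of the 7 genes other than Lifr by edgeR and by DESeq2, where edgeR called 0.0% and DESeq2 0.0678% of all genes. Il6st alone had an unadjusted p-value under 0.05, which 2.28% of genes had (log2 difference −0.46 ± 0.22, edgeR FDR 1), with KO below WT in MPP3 and above it in MPP4.

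Similarity of each gene to Lifr across the 16 libraries was described with the Pearson correlation of log2 CPM. Libraries of the same mouse are not independent, and much of each value reflects the gap between MPP3 and MPP4. Among the other listed genes, r was 0.86 for Il6ra (rank 130 of the genes tested other than Lifr) and 0.79 for Il6st (rank 329). By Spearman rho the order of both turned, with 0.85 for Il6st (rank 82) and 0.84 for Il6ra (rank 109), and with a prior count of 0.5 the Pearson ranks were 97 for Il6ra and 443 for Il6st. Pearson's r was −0.88 for Il11ra1, −0.86 for Stat3, −0.83 for Jak1, −0.32 for Il27ra and −0.30 for Socs3. Within the 8 MPP4 libraries, the Spearman rho with Lifr was 0.83 for Il6st, 0.50 for Il6ra, −0.83 for Socs3 and −0.67 for both Il27ra and Stat3.

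**Figure D4:**
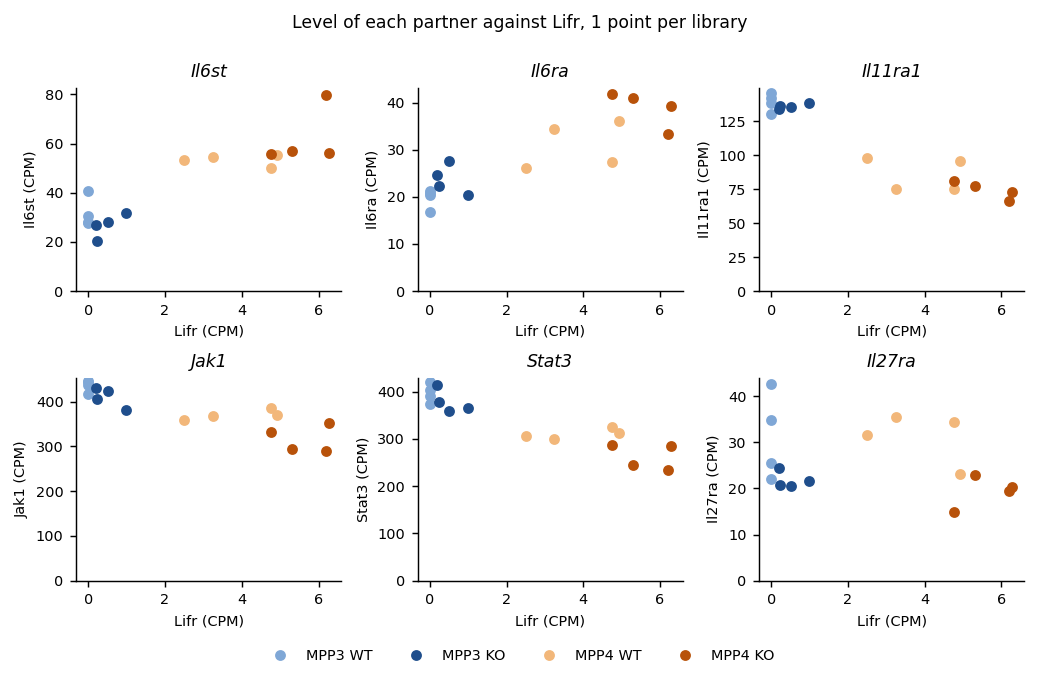
Level of 6 genes (y axes, CPM, from 0) against the level of Lifr (x axes, CPM) with 1 point per library, colored by group. MPP3 and MPP4 libraries form separate clouds, Il6st and Il6ra are higher where Lifr is high, and Il11ra1, Jak1 and Stat3 are lower there.

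The 6 genes most like Lifr over the 16 libraries were Emb, Tpm4, Ncf1, Cd33, Scpep1 and Wfdc17, with r between 0.93 and 0.96. Emb, which encodes the adhesion protein embigin, was at 359 ± 32.3 CPM in MPP3 WT, 512 ± 33.1 in MPP3 KO, 705 ± 36.0 in MPP4 WT and 842 ± 83.1 in MPP4 KO. Cd33, which encodes a sialic acid-binding receptor of myeloid cells, was at 3.55 ± 0.872, 5.60 ± 2.05, 36.1 ± 4.01 and 39.8 ± 8.09 CPM in the same order. Ncf1, a subunit of the phagocyte NADPH oxidase, was at 30.5 ± 5.81, 42.5 ± 4.50, 108 ± 7.50 and 121 ± 8.35 CPM. All 6 were detected in MPP3 WT, unlike Lifr. Over the 8 MPP4 libraries, the highest Spearman rho was that of Psmc2 and Lrrc75a (0.98 each), and the next value (0.95) was shared by 4 genes, Fastkd3 among them.

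The wider pathway was followed through 68 further genes: ligands, other receptor chains, kinases and STATs, inhibitors and reported STAT3 targets. Of these, 55 passed the filter. Among the 11 ligands, 4 passed, and the most abundant was Ebi3, a subunit of IL-27, at 45.2 ± 3.03 CPM in MPP3 WT and 48.8 ± 3.91 in MPP4 WT. Oncostatin M (Osm) was at 20.8 ± 4.36 and 15.1 ± 2.24 CPM, while its receptor chain Osmr had no counts. Lif itself had at most 73 counts in a library and Il6 at most 9, both under the filter. Of the other receptor chains, Il31ra, the neighbour of Il6st on chromosome 13, was at 4.71 ± 0.355 CPM in MPP3 WT, 7.03 ± 1.82 in MPP3 KO, 7.55 ± 2.94 in MPP4 WT and 8.88 ± 1.97 in MPP4 KO. Il12rb1 was the most abundant of them per kilobase, and Cntfr had 0 counts in all 16 libraries.

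Between populations, 16 of the 55 genes were called in WT (6 higher and 10 lower in MPP3) and 17 in KO (7 higher and 10 lower), beside the 15.1% and 17.9% of all genes. In a fit that compares the populations within each mouse (mouse as a block), 26 were called in WT, where 24.8% of all genes were called. Clcf1, a ligand that signals through LIFR and gp130 together with CNTFR, was 2.11-fold lower in MPP3 of WT mice (14.7 against 31.0 CPM, edgeR FDR 0.000132) and 2.14-fold lower in KO mice (12.3 against 26.3 CPM, edgeR FDR 9.78e-05). Ctf1, which encodes cardiotrophin-1, another ligand of LIFR and gp130, was higher in MPP3 of KO mice (5.25 against 1.80 CPM, edgeR FDR 0.0522), a call lost without MPP3 KO replicate 2 or MPP4 KO replicate 1 or 4 (FDR 0.106 to 0.209). Stat5a, a STAT used by many cytokine receptors, was higher in MPP3 in both genotypes (0.67 ± 0.08 in WT, edgeR FDR 1.15e-05, and 0.70 ± 0.08 in KO, edgeR FDR 6.58e-06). Stat5b, the most abundant of this group of kinases and STATs per kilobase, and Jak2, the least, were not called.

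Among the 16 inhibitors, Adam10, a protease that sheds membrane receptors, was higher in MPP3 (0.34 ± 0.07 in WT, edgeR FDR 0.00434, and 0.42 ± 0.07 in KO, edgeR FDR 0.000659). The adaptor Sh2b3 was lower in MPP3 of WT mice (−0.57 ± 0.20, edgeR FDR 0.0869), a call lost when any of 8 libraries was dropped singly (FDR 0.10 to 0.225). Ptpn6, the phosphatase SHP-1, was the most abundant inhibitor and was not called. Socs2, a suppressor of cytokine signalling, was lower in MPP3 of KO mice (3.32 against 36.4 CPM, −3.46 ± 0.60, edgeR FDR 0.000659). In MPP4 it was at 11.5, 15.7, 1.23 and 2.91 CPM in WT and at 44.8, 40.4, 25.7 and 34.8 CPM in KO. All MPP4 KO libraries lay above all MPP4 WT libraries, yet the difference of 2.22 ± 0.56 was not called by edgeR (FDR 0.166). DESeq2 called it (FDR 0.0300), as did edgeR with sex as a term (0.0822).

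Of the 27 STAT3 targets tested, 12 were called between populations in WT (4 higher and 8 lower in MPP3), beside 15.1% of all genes (6.8% higher and 8.33% lower), and 11 in KO (3 higher and 8 lower), beside 17.9% (8.71% and 9.18%). Those lower in MPP3 in both genotypes included the survival factor Bcl2 (−0.61 ± 0.10 in WT, edgeR FDR 0.000408, and −0.76 ± 0.10 in KO, edgeR FDR 4.02e-05) and the G1 cyclin Ccnd1 (−0.96 ± 0.14, edgeR FDR 0.000171, and −0.85 ± 0.14, edgeR FDR 0.000481). They also included the cytokine receptor chains Il10ra (−1.14 ± 0.20 in WT), Il21r (−0.82 ± 0.13) and Il4ra (−0.59 ± 0.14), the interferon response factor Irf1 (−0.34 ± 0.08) and the mitotic survivin gene Birc5 (−0.38 ± 0.10). Higher in MPP3 in both genotypes were the kinase Pim2 (0.89 ± 0.14 in WT) and the fibrinogen-like protein gene Fgl2 (0.48 ± 0.12). Myc was the most abundant target, at 1042 ± 119 CPM in MPP3 WT and 1028 ± 117 in MPP4 WT, and was not called.

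The remaining calls were held by 1 genotype each. In WT, Mt1 (2.06 ± 0.27) and the survival factor Bcl2l1 (0.44 ± 0.11) were higher in MPP3, and the kinase Pim3 was lower (−0.42 ± 0.14, edgeR FDR 0.0611), a call lost without MPP3 WT replicate 3 or 4 or MPP4 WT replicate 2 or 3 (FDR 0.148 to 0.190). In KO, the calls of Il12rb2 (0.50 ± 0.19, edgeR FDR 0.0911), Cebpd (0.85 ± 0.32, edgeR FDR 0.0949) and Icam1 (−0.28 ± 0.11, edgeR FDR 0.0951) were lost when any of 13, 10 and 11 libraries, respectively, was dropped singly. Whether these differed between genotypes was tested by the interaction, which called 0 of the 55 genes in the main fit. Mt1 was called for it with mouse as a block (edgeR FDR 0.00158) and by DESeq2 (FDR 0.00298).

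For KO against WT, 1 of the 55 genes was called in each population, beside 0.0676% of all genes in MPP3 and 0.0169% in MPP4. This was Mt1, which encodes a metallothionein. It rose from 19.3 ± 7.25 to 138 ± 22.3 CPM in MPP3 and from 4.60 ± 0.892 to 135 ± 35.5 CPM in MPP4. The median log2 difference of the 55 genes was −0.01 in MPP3 and −0.01 in MPP4, and that of all genes tested −0.01 in both. Bcl6, a transcriptional repressor and the least abundant target measured, had the next smallest p-value in MPP3, at 3.33, 2.40, 4.80 and 3.86 CPM in WT and 6.18, 5.19, 7.40 and 7.59 CPM in KO (0.87 ± 0.27, edgeR FDR 0.273). Groups did not overlap for 3 of the 55 genes in MPP3 and 5 of 55 in MPP4, beside 4.58% and 7.27% of all genes. For the interaction, Mt1 had the smallest p-value and was called with mouse as a block (−1.93, FDR 0.00158), where 0.0169% of all genes were called, and the next smallest was that of Socs2.

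**Figure D5:**
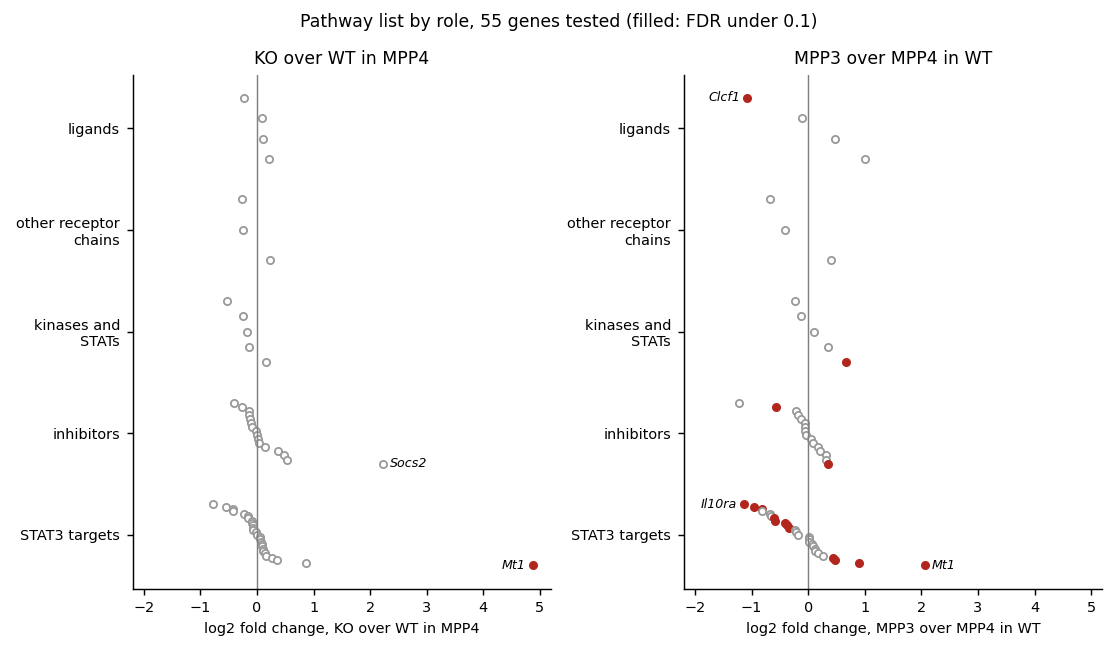
Log2 fold change (x axes) of 55 genes of the pathway list, by role (y axes), for KO over WT in MPP4 (left) and MPP3 over MPP4 in WT (right), 1 point per gene, filled red where the edgeR FDR is under 0.1. Mt1 is the 1 filled point on the left, with Socs2 open at 2.22, and 16 points are filled on the right.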

How the data were processed

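RNA-seq libraries were made from sorted MPP3 and MPP4 cells. Per the labels and the study's methods, the authors aligned 100-base paired-end reads to mm10 with STAR (2.7.3a) and counted reads per gene with featureCounts (2.0.0). The deposited values used here are raw counts per gene, and strand use is not given in the sources used here. A normalised table was not used.

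Counts were tested with the quasi-likelihood test of edgeR (4.0.16 in R 4.3.3) on all 16 libraries with TMM scaling and 1 mean per group. A gene was kept where at least 1 group averaged more than 100 counts (11831 genes), the Benjamini-Hochberg threshold was FDR under 0.1, and DESeq2 (1.42.0) was an alternative. The fits were tested on simulated data. Identifiers were matched to symbols for 47310 of 47937 genes. CPM per kb used GRCm38 exon lengths. A count of 0 was read as up to 3 counts. Correlations used log2 CPM with a prior count of 2.

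MPP3 and MPP4 libraries of the same genotype and number deviated together from their group means (r from 0.274 to 0.528), so a block by mouse was fitted as an alternative. Further alternatives were other size factors, other filters, age or sex as a term, and leaving out libraries. Replicates differed beyond sampling noise (chi-square per gene from 19.4 to 64.8). Lifr, the listed genes and the pathway list were chosen with earlier results of these data known. Genes named were the 9 listed, the pathway genes called or with the smallest p-value in a comparison, the most and least abundant per role, and those most like Lifr.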

Additional observations from a re-analysis of the deposited data

Results flagged for a closer look

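Il6st in MPP4 KO held 1 library that stood apart from the others of its group. Mouse KO1 was at 79.6 CPM and the other libraries at 57.0, 55.7 and 56.0 CPM, so that the gap to the nearest library was 0.947 of the whole range, above Dixon's 95% critical value for 4 samples. Chance gives such a gap in about 1 in 20 groups, and 32 groups of values were examined. Without this library, Il6st differed between KO and WT in MPP4 by 0.08 on the log2 scale.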

How the results depend on the processing

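Population differences of Il6st, Il6ra, Il11ra1, Jak1 and Stat3 stayed called under every alternative run. KO against WT in MPP4 depended on the test. Of the receptor and signalling genes, DESeq2 called 3 and edgeR with sex as a term 2, against 0. Of the pathway list, DESeq2 called 3, sex as a term 3 and the replicate block by number 2, against 1. For the pathway interaction, DESeq2 and the replicate block by mouse called 1 each (Mt1), against 0. With the block by mouse, 26 pathway genes were called between populations in WT, against 16. Leaving out 1 library gave 1 to 2 pathway calls for KO against WT in MPP3 and 0 to 1 for the interaction, where Mt1 was called without MPP3 WT replicate 3 (FDR 0.00653). The causes were not tested.

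WT and KO mice of the same number differ in sex and share only a number (r from −0.44 to 0.0606). A block by that number gave 29 calls over all genes in MPP3, against 8, and 23 in MPP4, against 2.

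Differences that changed sign were all uncalled. Stat3 in MPP3 (KO against WT) was 0.0027 with age as a term. Without both libraries of mouse WT1, Socs3 was 0.015 in MPP3 (KO against WT) and −0.086 between populations in WT. Il27ra between populations in WT was −0.0049 with all genes kept, −0.0064 with filterByExpr, −0.0071 with sex as a term, −0.021 with the block by mouse and −0.11 without mouse WT1. With 1 library left out, Socs3 ranged from −0.21 to 0.016 (KO against WT in MPP3), −0.59 to 0.073 (in MPP4), −0.20 to 0.45 (interaction), −0.051 to 0.38 (populations in WT) and −0.064 to 0.55 (in KO). Il27ra ranged from −0.18 to 0.14 between populations in WT, and the Il6ra interaction from −0.14 to 0.010. Of the 6 genes most like Lifr, 4 were shared with a prior count of 0.5 and 2 with Spearman rho. Depth limits Lifr in MPP3, where counts were 38 or fewer.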
